A study of Mus musculus with 4 samples.

Results

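The 9 genes Otx2, Zic2, Pou3f1, Pax6, Sox1, Sox3, Nes, Six3 and Rax mark the early neural plate and the forebrain that forms from its front end. They were taken as a fixed list of symbols, and every probe set that the array annotation assigned to 1 of them alone was read, 20 probe sets of 45037 besides controls, for 9 of 18193 genes with a probe set of their own. The study asked which genes set apart differentiated mouse ES cells that carry kidney-specific cadherin (KSP, encoded by Cdh16) on their surface. Sorted cells were hybridized to 4 Affymetrix mouse genome arrays, 2 of KSP-positive cells and 2 of KSP-negative cells, and the study names 2 independent experiments. All 4 samples came from 1 cell line, CAG-GFP EB3 of strain 129/Ola, in which a CAG promoter drives green fluorescent protein in every cell. Both fractions were cultured with Activin at 10 ng/mL, a ligand of the TGF-beta family, and were sorted on day 18 after an embryoid body step, so no culture without Activin and no earlier day was compared. Both fractions were sorted from cells positive for GFP, and dead cells were left out with propidium iodide.

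The neural plate arises from the epiblast, the pluripotent layer of the early embryo, when signals such as BMP and Nodal are held back. Sox1, Sox2 and Sox3 are HMG-box factors that keep cells in the neural progenitor state, Otx2, Six3, Rax and Pax6 are homeodomain factors that pattern the forebrain and the eye field, Pou3f1 and Zic2 act as epiblast cells turn towards neural fate, and Nes encodes nestin, an intermediate filament protein of neural progenitors. Several of them are not restricted to neural tissue, since Otx2, Pou3f1, Zic2 and Sox3 are also expressed in the epiblast, and nestin is found in pericytes and in young endothelium and muscle.

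Each value below is the log2 of a MAS5 signal after the arrays were scaled to a common 75th percentile, and signals under 12.3, the 20th percentile of all values, were raised to that floor, which is 3.62 on the log2 scale. A probe set whose mean over the 4 arrays was under the 40th percentile, 5.14 on the log2 scale, is called dim here and was not tested. The brightest probe set stood for its gene. Differences are KSP-positive minus KSP-negative, and a gene was called at an adjusted p under 0.05 in limma over 12849 genes. Levels were not compared between genes, because each probe set binds with its own strength. A summed signal below is over the tested genes of a list, and bright probe sets weigh most in it.

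The arrays correlated with each other at 0.913 to 0.956 over probe sets, and 16.8% to 22.9% of an array's probe sets lay at the floor. The KSP-positive pair correlated at 0.952 and the KSP-negative pair at 0.956. KSP-positive replicate 2 and KSP-negative replicate 1 also correlated at 0.952, and the other pairs across fractions at 0.913 to 0.947. Beta-actin probe sets at the 3′ end over those at the 5′ end, a sign of RNA quality, gave ratios of 2.92 and 1.80 for KSP-positive cells and 1.79 and 3.55 for KSP-negative cells. Cdh16, the gene of the sorted protein, had log2 signals of 5.66 and 5.03 in KSP-positive cells and 5.30 and 4.71 in KSP-negative cells, which overlapped (difference 0.34, adjusted p = 0.816 from limma), so the transcript of the sorted protein was not called. Marker genes of macrophages, the phagocytes of the blood lineage, were brighter in KSP-positive cells. Of 14 such genes 12 were tested, 11 were called higher, and their scaled signals summed to 22544 and 10307 in KSP-positive cells and to 1636 and 1547 in KSP-negative cells. C1qa, a complement chain made by macrophages, was at the floor in both KSP-negative arrays. In sorted bulk samples fewer cells of a type and less RNA per cell cannot be told apart, and the part that macrophage RNA has in the differences below was not tested.

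None of the 9 genes was higher on average in KSP-positive cells. All 9 had a lower mean log2 signal there by the brightest probe set, with log2 differences from -0.09 for Six3 to -2.86 for the dim Zic2, and only Otx2 passed the test. Of the 5 genes bright enough to be tested, Otx2, Pou3f1, Sox3, Nes and Six3, 1 was called lower, beside 1.65% of all genes tested, and 0 were called higher, beside 1.84% of all genes tested. At an unadjusted p under 0.05 limma gave 2 lower, Otx2 and Pou3f1, and 0 higher. For unadjusted p from limma no share of all genes was taken, here or below. Such counts therefore have no rate to stand beside. Over 2-fold lower were 4 genes, of which Otx2 and Pou3f1 were tested and Zic2 and Sox1 were dim, and 0 were over 2-fold higher. Among the 5 tested genes that is 2 lower and 0 higher, beside 7.66% lower and 7.92% higher of all genes tested. No share was taken over dim genes. The fractions did not overlap for 7 of the 9 genes, with both KSP-positive arrays under both KSP-negative arrays. Among the 5 tested genes this held for 4, beside 24.6% of all genes tested, and 5 genes are too few to read a difference from that share. The median difference was -0.61 over the 5 tested genes, beside -0.03 over all genes tested, and it was -0.94 over all 9 with the dim ones.

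**Figure D1:**
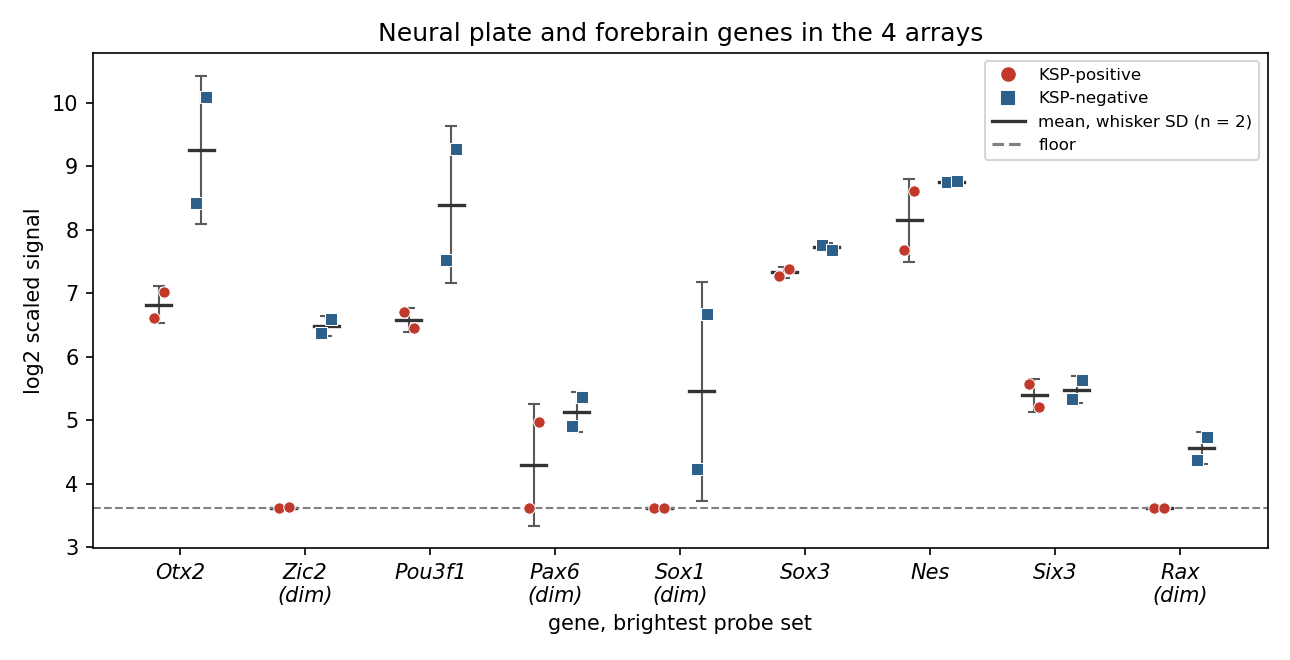
Log2 scaled signal (vertical axis) of the brightest probe set of each of the 9 genes, for KSP-positive arrays (circles, left of each pair) and KSP-negative arrays (squares), with the mean and the SD over 2 arrays and the floor at 3.62 as a dashed line. Otx2, Pou3f1 and Sox1 have a KSP-negative replicate 2 well above replicate 1, whereas the KSP-negative arrays of Zic2, Sox3 and Nes lie close together.

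Otx2, the homeodomain factor required for the forebrain and midbrain, was the gene called lower. Its only probe set had scaled signals of 98.3 and 131 in KSP-positive cells, against 346 and 1090 in KSP-negative cells, which are log2 signals of 6.62 and 7.03 in KSP-positive cells and 8.43 and 10.09 in KSP-negative cells. Both KSP-positive arrays lay below both KSP-negative arrays, and the KSP-negative replicates were further from each other than the KSP-positive ones. The mean log2 signal was 6.83 ± 0.29 in KSP-positive cells and 9.26 ± 1.17 in KSP-negative cells (SD, n = 2 each), a 5.41-fold lower level (log2 difference -2.43, standard error 0.51, 95% interval -3.56 to -1.31, adjusted p = 0.0293 from limma). Leaving out KSP-negative replicate 2 gave a log2 difference of -1.61 and ended the call (adjusted p = 0.206 from limma). With any other array left out Otx2 was still called lower. It was not called when dim genes were kept in the fit (adjusted p = 0.385 from limma), where 0 of 18193 genes were called. Nor was Otx2 called when the intensity trend was left out of the fit (adjusted p = 0.0566 from limma).

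Otx2 is read from several start sites, and RefSeq gives 4 promoter windows for it on assembly GRCm38.p6. Windows of 5 of the 9 genes were searched here (Otx2, Pax6, Nes, Sox1 and Six3), 9 windows in all. Promoters of the remaining genes of the list were not searched. Each window was searched in its 250 bases before the start, on both strands, for the octamer ATGCAAAT bound by POU factors, the core CATTGT bound by SOX factors, the OTX site TAATCC and the homeodomain core TAATTA. No octamer and no SOX core was found in these 9 windows, where 1.6% and 10.7% of 32851 RefSeq windows of the same length hold them. The 2 Otx2 windows that hold a homeodomain core are shown because Otx2 is the gene called. Both lie on the minus strand, read 5′ to 3′, and capitals mark the matches.
Otx2, chr14:48665110-48665359: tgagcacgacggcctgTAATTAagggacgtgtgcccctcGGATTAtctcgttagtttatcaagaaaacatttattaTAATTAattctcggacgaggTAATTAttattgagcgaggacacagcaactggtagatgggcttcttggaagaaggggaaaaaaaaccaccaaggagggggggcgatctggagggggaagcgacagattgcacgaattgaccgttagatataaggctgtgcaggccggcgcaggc
Otx2, chr14:48667645-48667894: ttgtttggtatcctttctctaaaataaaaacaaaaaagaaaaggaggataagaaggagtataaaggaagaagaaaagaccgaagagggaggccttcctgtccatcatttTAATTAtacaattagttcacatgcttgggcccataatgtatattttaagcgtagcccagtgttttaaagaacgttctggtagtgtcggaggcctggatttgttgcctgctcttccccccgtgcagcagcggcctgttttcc
The first window holds the homeodomain core 3 times and the OTX site once in reverse, as GGATTA, and the second holds the core once. Of all windows 4.84% hold at least 1 homeodomain core and 6.25% at least 1 OTX site. The matches are letters in a window, and binding was not measured.

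Pou3f1, a POU-domain factor of the late epiblast and the early neural plate, had the next largest difference among the tested genes. The brighter of its 2 probe sets had log2 signals of 6.71 and 6.45 in KSP-positive cells and 7.53 and 9.27 in KSP-negative cells. As for Otx2, the fractions did not overlap and KSP-negative replicate 2 was the highest array. The mean was 6.58 ± 0.19 in KSP-positive cells and 8.40 ± 1.23 in KSP-negative cells (SD, n = 2 each), 3.54-fold lower (log2 difference -1.82, standard error 0.53, 95% interval -2.99 to -0.65), which did not pass the test (adjusted p = 0.0946 from limma, and 0.0188 with the values as deposited). With the values as deposited more of all genes tested were called lower too, 352 against 212. The other probe set of Pou3f1 read 5.57 and 5.02 in KSP-positive cells and 4.90 and 6.01 in KSP-negative cells. These overlapped, with a difference of -0.15, so the probe sets of this gene did not give the same size of difference, and the mean of both had a difference of -0.99 (adjusted p = 0.35 from limma). The difference of the brighter probe set was -0.95 (adjusted p = 0.519) without KSP-negative replicate 2. Without KSP-negative replicate 1 it was -2.69 and called (adjusted p = 0.0102 from limma), and leaving out KSP-positive replicate 1 gave -1.96, also called (adjusted p = 0.0496).

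Zic2, a zinc-finger factor needed for the closing of the neural tube and for forebrain midline tissue, was dim, since its mean of 5.05 lay just under the filter, at percentile 38.6. Its scaled signals were 10.7 and 12.3 in KSP-positive cells, against 82.7 and 97 in KSP-negative cells. Here the KSP-negative replicates were alike, and the KSP-positive replicates lay at or beside the floor. On the log2 scale they were 3.62 and 3.63 in KSP-positive cells and 6.37 and 6.60 in KSP-negative cells, a 7.28-fold lower level whose size depends on the floor: the log2 difference was -2.86 as given, -2.96 with no floor, and -1.27 with the floor at the 40th percentile. When every gene was kept in the fit, Zic2 had an unadjusted p of 4.8e-04 and an adjusted p of 0.201 from limma. That was the lowest adjusted p among the 18193 genes of that fit. The adjustment can give 1 value to many genes, so this does not rank Zic2 first.

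Sox1, which appears first in the neural plate itself, was at the floor in both KSP-positive arrays by the brighter of its 2 probe sets, with scaled signals of 4.72 and 2.25 there and 18.7 and 102 in KSP-negative cells. Its log2 signals in KSP-negative cells were 4.23 and 6.68, so 1 array carries most of the signal, and the level in KSP-positive cells was at least 3.57-fold lower. This is a bound against the floor and a value without a test, since Sox1 was dim, and without KSP-negative replicate 2 the difference from the floor was -0.61 on the log2 scale. The other Sox1 probe set was at the floor on all 4 arrays.

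Sox3, an X-linked gene of the epiblast and neural plate, was bright enough to be tested and had a small difference. Its log2 signals were 7.27 and 7.39 in KSP-positive cells and 7.77 and 7.68 in KSP-negative cells. The fractions did not overlap, but the gap was small, with a difference of -0.39 (standard error 0.37, 95% interval -1.21 to 0.43, adjusted p = 0.639 from limma). The interval still holds a 2-fold lower level. A second, dim Sox3 probe set read 4.97 and 4.27 in KSP-positive cells and 4.43 and 3.62 in KSP-negative cells, which overlapped with a difference of 0.59 in the other direction.

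Sox2, which pairs with Pou5f1 in pluripotent cells and stays on in neural progenitors, had log2 signals of 8.53 and 9.09 in KSP-positive cells and 11.27 and 12.29 in KSP-negative cells. Its difference of -2.97 passed the test (adjusted p = 0.00535 from limma) and is given because Sox1 and Sox3 belong to the same subgroup of Sox genes.

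Nes had 3 probe sets, of which 2 were tested. The brightest read 7.69 and 8.61 in KSP-positive cells and 8.75 and 8.77 in KSP-negative cells, a difference of -0.61 (standard error 0.40, 95% interval -1.49 to 0.27, adjusted p = 0.469 from limma). KSP-positive replicate 2 lay close under both KSP-negative arrays, and replicate 1 was the low one. The second read 6.93 and 7.23 in KSP-positive cells and 8.32 and 7.29 in KSP-negative cells, with a difference of -0.73, and here KSP-negative replicate 1 was the high one. KSP-positive replicate 1 was the lowest array in both probe sets, and neither passed the test. The remaining probe set was dim, at the floor in both KSP-positive arrays and at 3.70 and 4.07 in KSP-negative cells.

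Nestin forms filaments with other intermediate filament proteins, and genes of its partners and of its relatives were read beside it. Of 7 such genes tested, 0 were called in either direction by limma, where 0 higher and 2 lower had a p under 0.05 before adjustment, and the median difference was -0.80. The 2 were Ina, the neuronal filament alpha-internexin, with a difference of -1.87 (adjusted p = 0.0607), and Gfap, the filament protein of astrocytes, with one of -1.54 (adjusted p = 0.198). Vim, the vimentin with which nestin copolymerizes, which was named after its values were seen, had log2 signals of 13.88 and 13.21 in KSP-positive cells and 12.98 and 13.01 in KSP-negative cells, a difference of 0.55 (adjusted p = 0.42 from limma). Among genes of vascular, pericyte and muscle cells, which can hold nestin, 1 of 9 tested was called, Pdgfrb, the PDGF receptor of pericytes and stroma, which was higher by 1.81 (adjusted p = 0.0147 from limma), and the summed scaled signal of the list was 17200 and 15085 in KSP-positive cells and 12567 and 7371 in KSP-negative cells. Pdgfrb was not called when KSP-negative replicate 2 was left out. Acta2, the brightest gene of that list, read 13.45 and 12.98 in KSP-positive cells and 13.11 and 12.31 in KSP-negative cells. It weighs most in the sums, and its difference of 0.51 was not called (adjusted p = 0.509 from limma). The part of vascular, pericyte and muscle cells in the Nes signal was not tested.

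The eye field and forebrain genes Six3, Pax6 and Rax were faint in both fractions. The tested probe set of Six3, a factor of the most anterior neural plate, read 5.58 and 5.21 in KSP-positive cells and 5.33 and 5.63 in KSP-negative cells. The fractions overlapped, with a difference of -0.09 (standard error 0.52, 95% interval -1.24 to 1.07, adjusted p = 0.956 from limma), an interval that holds a 2-fold change in either direction. The direction turned when 1 array was left out, to 0.10 when KSP-positive replicate 2 was dropped and to 0.07 when KSP-negative replicate 2 was. A second Six3 probe set was at the floor in both KSP-positive arrays and at 4.98 and 4.44 in KSP-negative cells, at least 2.13-fold lower in KSP-positive cells, and the remaining probe set was at the floor on all 4 arrays.

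Pax6, the paired-box factor of eye, forebrain and spinal cord progenitors, had 5 probe sets and none was tested. The brightest read 3.62 and 4.98 in KSP-positive cells and 4.91 and 5.36 in KSP-negative cells, with overlap and a difference of -0.83. The second, almost as bright, read 3.67 and 4.13 in KSP-positive cells and 5.23 and 5.76 in KSP-negative cells, without overlap and 3.02-fold lower in KSP-positive cells. Of the other 3, 1 had a difference of 0.00, 1 had one of 0.21 and 1 was at the floor on all 4 arrays, so the probe sets of Pax6 did not give 1 answer at this signal.

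Rax, the retinal homeobox gene of the eye field, was at the floor in both KSP-positive arrays and at log2 signals of 4.38 and 4.74 in KSP-negative cells. Its scaled signals were 5.91 and 3.57 in KSP-positive cells and 20.8 and 26.8 in KSP-negative cells. The level in KSP-positive cells was at least 1.92-fold lower, without a test, and the signals of both fractions were in the dim range.

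**Figure D2:**
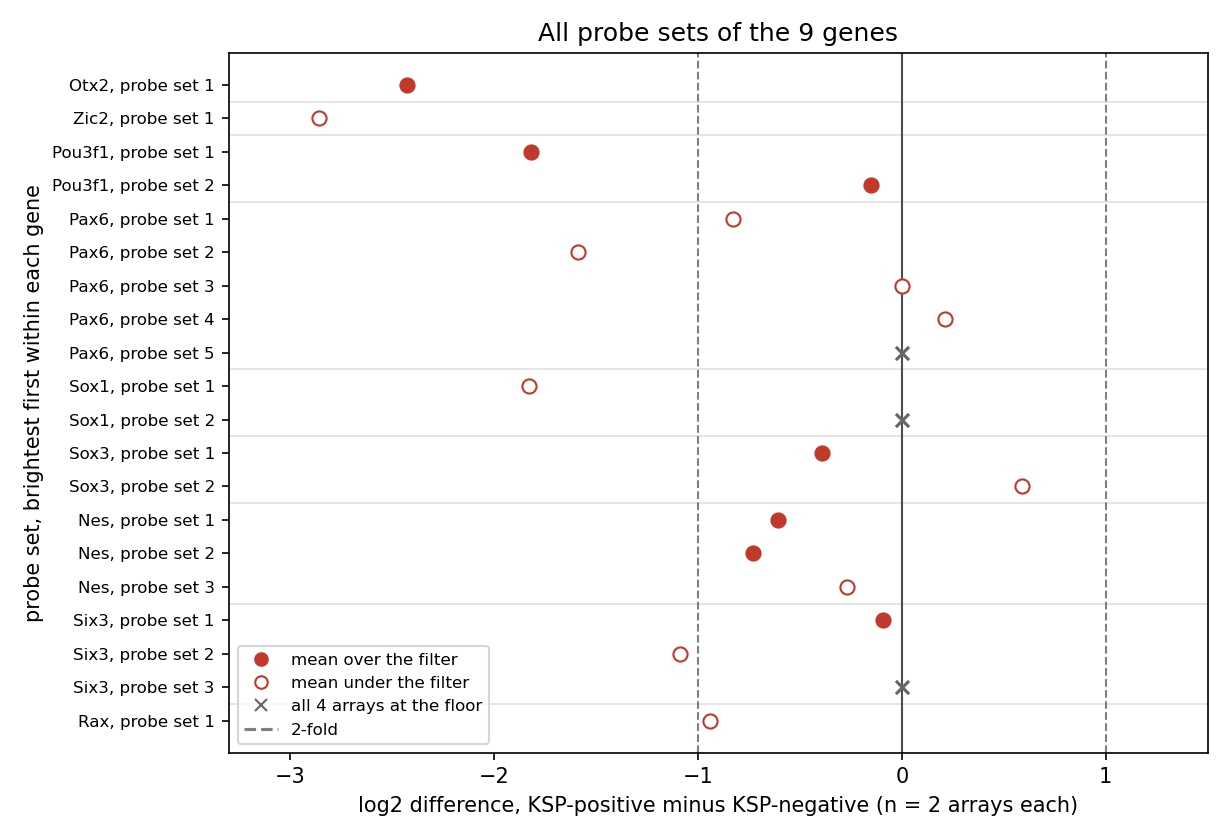
Log2 difference, KSP-positive minus KSP-negative (horizontal axis, means of 2 arrays each), of all 20 probe sets of the 9 genes, brightest first within a gene; filled circles are the 7 probe sets over the filter, open circles are dim, and crosses were at the floor on all 4 arrays. Of the 20, 14 lie left of 0, 2 right of it, 3 were at the floor throughout and 1 differed by 0.00.

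With each probe set tested alone, over 27022 kept probe sets, 0 of the 7 kept probe sets of these genes were called by limma, beside 0.296% of all kept probe sets called lower and 0.307% called higher, and 2 were lower at an unadjusted p under 0.05, those of Otx2 (adjusted p = 0.102) and the brighter of Pou3f1 (adjusted p = 0.218). The KSP-negative replicates were far apart for some of the 9 genes and close for others. By the brightest probe set, replicate 2 minus replicate 1 of KSP-negative cells was 1.65 for Otx2, 1.74 for Pou3f1 and 2.45 for Sox1, against 0.23 for Zic2, 0.02 for Nes and -0.08 for Sox3, and 0.20 for the median of all genes tested. The second tested probe set of Nes had KSP-negative replicates further apart, at 8.32 and 7.29. Replicate 2 minus replicate 1 of KSP-negative cells had a median of 1.18 over epiblast genes and 1.04 over naive ES cell genes. Its median was 0.94 over other neural plate and neural progenitor regulators and 0.47 over neuronal genes. Over vascular, pericyte and muscle genes it was -0.87. The KSP-positive replicates differed by 0.41 for Otx2 and -0.27 for Pou3f1.

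The genes whose signals ran closest to those of Otx2 were sought among 130 tested genes of the lists below, by the Euclidean distance of log2 values after each gene's mean over the 4 arrays was taken away. The nearest were Pim2, a serine/threonine kinase, at a distance of 0.29, Zic5, a zinc-finger factor, at 0.36 and Fgf5, a growth factor of the primed epiblast, at 0.42. Pim2 read 6.42 and 6.81 in KSP-positive cells and 8.58 and 9.97 in KSP-negative cells (difference -2.66, adjusted p = 0.0147 from limma). Zic5 read 6.0 and 6.27 in KSP-positive cells and 7.68 and 9.77 in KSP-negative cells (difference -2.59, adjusted p = 0.0395), and Zic5 and Zic2 are neighbouring protein-coding genes in RefSeq. Fgf5 read 6.36 and 6.58 in KSP-positive cells and 8.56 and 9.89 in KSP-negative cells (difference -2.75, adjusted p = 0.0121). Each was lowest in KSP-positive replicate 1 and highest in KSP-negative replicate 2, as Otx2 was. As for Otx2, the calls of all 3 were lost when KSP-negative replicate 2 was left out. The differences were then -1.97 for Pim2, -1.55 for Zic5 and -2.09 for Fgf5. Fewer of all genes tested were called in that fit too, so a lost call is not particular to these genes. Likeness over 4 arrays is a description of these arrays.

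**Figure D3:**
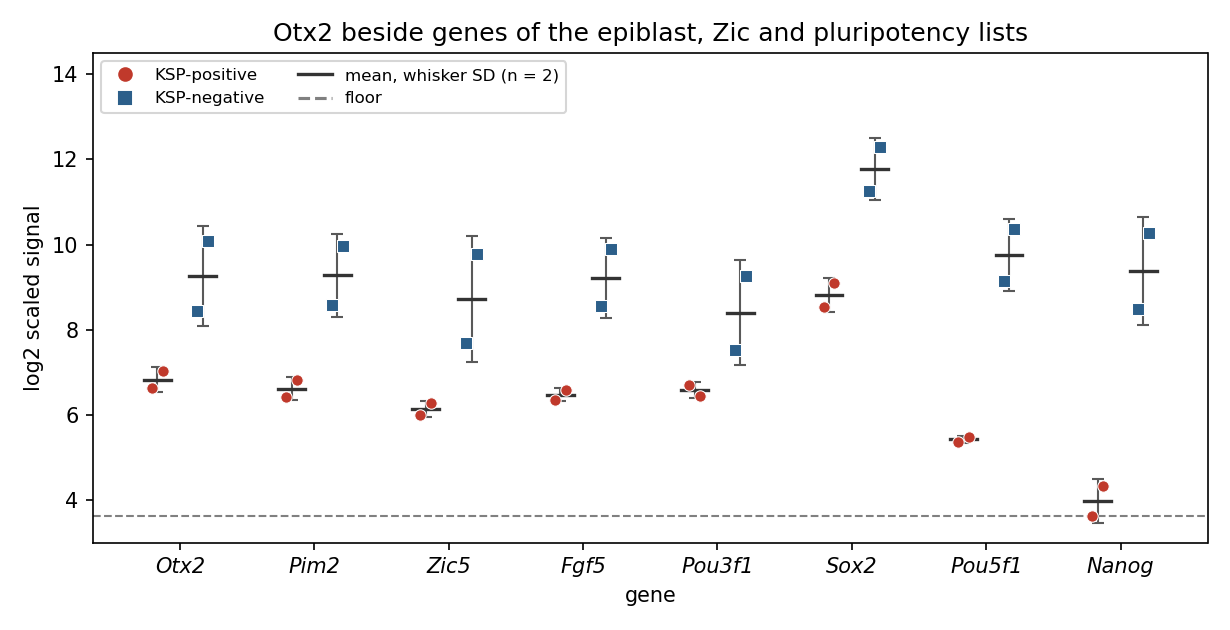
Log2 scaled signal (vertical axis) of Otx2, its 3 nearest genes, Pou3f1, Sox2, Pou5f1 and Nanog in KSP-positive arrays (circles, left) and KSP-negative arrays (squares), with the mean and the SD over 2 arrays. In all 8 genes KSP-negative replicate 2 is the highest array, and both KSP-positive arrays lie below both KSP-negative arrays.

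Other regulators of the neural plate and of neural progenitors did not move as 1 group. Of 35 such genes 31 had a probe set of their own and 18 were tested, of which 1 was called higher and 3 lower, with a median difference of -0.69. The 3 lower were Sox2, Zic5 and Sox21, a Sox factor of progenitors with a difference of -2.02 (adjusted p = 0.0422 from limma). The gene called higher was Ncam1, a neural and mesenchymal cell adhesion molecule, at 11.72 and 11.18 in KSP-positive cells and 10.09 and 9.48 in KSP-negative cells (difference 1.66, adjusted p = 0.0347 from limma). Hes5, a Notch target of neural progenitors singled out after its values were seen, was at the floor (3.62) and at 5.08 in KSP-positive cells and at 5.80 and 10.85 in KSP-negative cells. KSP-negative replicate 2 was far above the other 3 arrays, and the difference of -3.98 was not called (adjusted p = 0.109 from limma). When KSP-negative replicate 2 was left out, 0 genes of the list were called higher and 1 lower, and Zic5 and Sox21 had adjusted p of 0.257 and 0.261. Without KSP-positive replicate 1, Ncam1 and Sox21 were not called (adjusted p = 0.174 and 0.161).

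Genes of later neural cells were mostly not called. Of 15 neuronal genes tested 0 were called higher and 1 lower, Stmn2, a microtubule regulator of neurons, at 6.61 and 6.39 in KSP-positive cells and 8.25 and 8.33 in KSP-negative cells (difference -1.79, adjusted p = 0.0303 from limma). Leaving out KSP-negative replicate 2 gave Stmn2 an adjusted p of 0.177, and leaving out KSP-negative replicate 1 gave 0.0686. At an unadjusted p under 0.05 limma gave 0 higher and 4 lower. The median over these 15 was -0.71 and their summed scaled signal was 1430 and 1330 in KSP-positive cells and 1901 and 3016 in KSP-negative cells. Of 5 tested genes of astrocytes and oligodendrocytes limma called 0, and without adjustment 1 higher and 1 lower had a p under 0.05. Those were Slc1a3, a glutamate transporter of glia, with a difference of 0.97 (adjusted p = 0.223), and Gfap, the astrocyte filament protein, with one of -1.54 (adjusted p = 0.198).

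Lists of pluripotent cells, in which Otx2, Pou3f1, Zic2 and Sox2 are also expressed, were lower in most members. Of 17 tested genes of the epiblast and of primed pluripotency, 13 were called lower and 0 higher, with a median difference of -2.66, and of 19 tested genes of naive ES cells, 14 were called lower and 0 higher, with a median of -2.56. Fgf4, a growth factor of pluripotent cells, differed by -4.93 on the log2 scale (adjusted p = 0.00202 from limma). Lin28a, an RNA-binding protein of embryonic cells, differed by -3.44 (adjusted p = 0.00233). Pou5f1, the POU factor that marks pluripotent cells, had log2 signals of 5.37 and 5.48 in KSP-positive cells and 9.15 and 10.36 in KSP-negative cells (difference -4.33, adjusted p = 0.00202 from limma). The summed scaled signal of the epiblast list was 3981 and 4805 in KSP-positive cells and 14766 and 28746 in KSP-negative cells, and that of the naive list was 9773 and 10648 in KSP-positive cells and 19027 and 28730 in KSP-negative cells. The brightest gene of the naive list in KSP-positive cells, Klf4, read 12.68 and 12.77 there and 12.28 and 12.48 in KSP-negative cells. Klf4 weighs most in the KSP-positive sums of that list, and its difference of 0.35 was not called (adjusted p = 0.611 from limma). No gene of either list was higher at an unadjusted p under 0.05 in limma. Without KSP-negative replicate 2, 5 genes of the epiblast list and 6 of the naive list were called lower, Fgf4, Lin28a and Pou5f1 among them. The part that remaining pluripotent cells have in the signals of Otx2, Pou3f1 and Zic2 was not tested.

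Signals that open or close neural fate were read too. Of 12 tested genes of BMP, Wnt, FGF and hedgehog signals and their antagonists, 1 was called lower, Fst, which encodes follistatin, a binder of Activin, with a difference of -1.64 (adjusted p = 0.0404 from limma), and 0 higher. Of 13 tested neural crest genes, 2 were called lower, Erbb3 and Foxd3, and Foxd3 is also in the epiblast list. Of 11 tested genes of the primitive streak and endoderm, 5 were called lower, among them Eomes, Mixl1, Foxa2 and Lhx1, with a median difference of -1.90. The 0 calls higher in these 3 lists stand beside 1 gene each that was higher at an unadjusted p under 0.05 in limma. When KSP-negative replicate 2 was left out, 0 genes of the signalling list, 0 of the neural crest list and 1 of the primitive streak and endoderm list, Eomes, were called lower. Fst was also not called when KSP-positive replicate 2 was left out (adjusted p = 0.103), and not with the values as deposited (adjusted p = 0.0562).

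**Figure D4:**
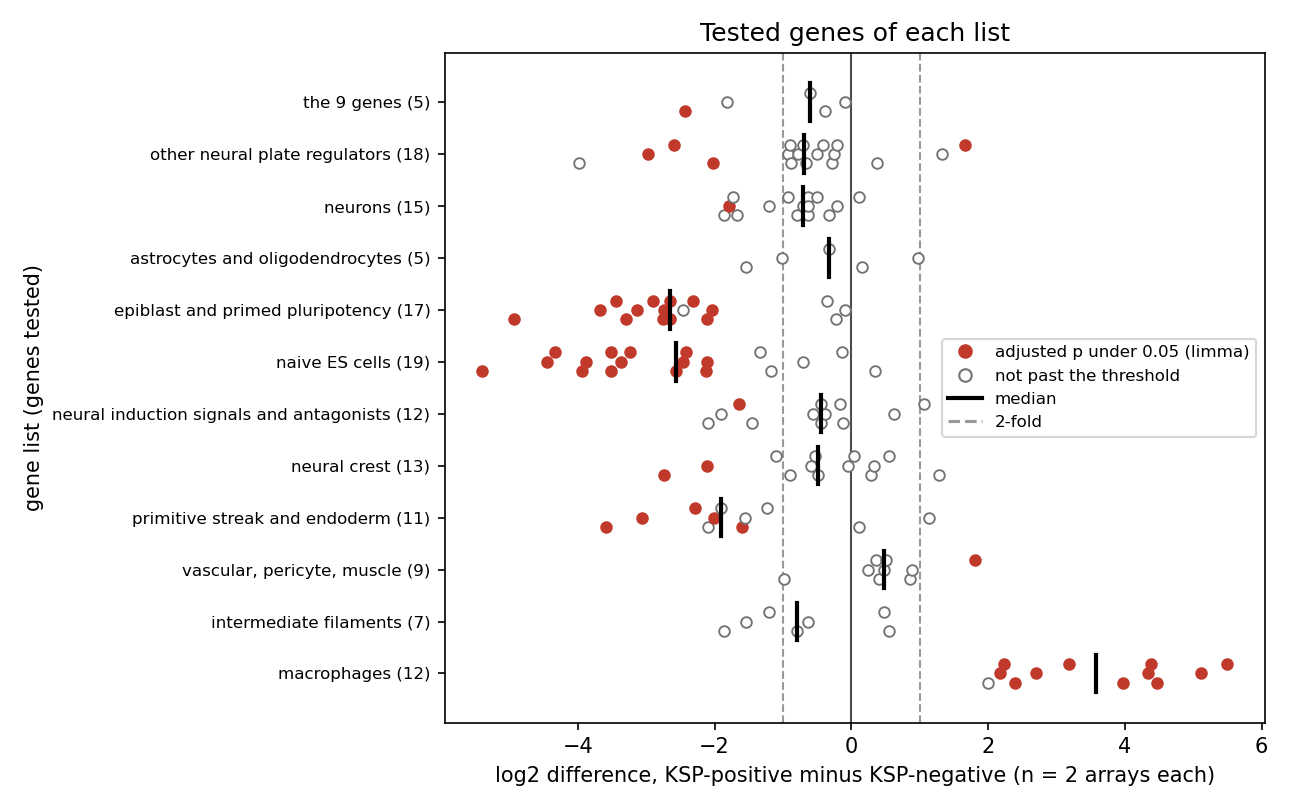
Log2 difference, KSP-positive minus KSP-negative (horizontal axis), of the tested genes of each list (rows, number tested in parentheses); filled circles have an adjusted p under 0.05 in limma, the thick bar is the median and dashed lines mark 2-fold. The epiblast and naive ES cell lists have medians of -2.66 and -2.56, the 5 tested neural plate and forebrain genes -0.61 and the macrophage list 3.58.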

How the data were processed

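Total RNA of the 4 sorted samples was labelled with biotin after a two-cycle cDNA synthesis and hybridized to Affymetrix arrays. The authors deposited 1 intensity per probe set and array, a linear MAS5 signal according to the submitters' notes. The study's methods name GeneSpring and a 2-fold threshold, and the setting is not given in the sources used here. The target of the MAS5 scaling is not given either, and the 75th percentiles of the deposited arrays ran from 226 to 321.

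Arrays were scaled to the mean 75th percentile, a signal of 281 (factors 1.24 and 0.874 for KSP-positive cells, 0.905 and 1.06 for KSP-negative cells), floored at the 20th percentile and turned into log2 values. The annotation gave 1 gene for 34945 of 45037 probe sets, several for 932 and none for 9160. Probe sets above the 40th percentile entered the test, each gene by its brightest single-gene probe set. R 4.3.3 with limma 3.58.1 compared the fractions by group means with trended empirical Bayes variances and Benjamini-Hochberg adjustment over 12849 genes. The procedure was tested only on simulated arrays in which genes varied independently, so it was not tested against a shift of a whole array. With 1 array left out, the lone array of a fraction was taken to vary like the other fraction. No source ties the replicate numbers to the experiments, so replicates were not paired. Figures were drawn with matplotlib 3.10.9.

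The genes, the lists, the alternatives and the rule for named genes (the 9 genes, Cdh16, up to 4 genes of each list with the smallest p among those called or 2 where none was, and the 3 nearest genes of each called gene) were chosen with earlier results of these data known. Vim, Hes5, Klf4 and Acta2 were named outside this rule. Lists held neural plate regulators, neurons, astrocytes and oligodendrocytes, epiblast, naive ES cells, neural induction signals, neural crest, primitive streak and endoderm, vascular, pericyte and muscle cells, intermediate filaments and macrophages, and share Foxd3, Pax3, Cer1, Des, Ina, Gfap, Nefl and Nefm. Precision is limited by the number of arrays. Promoter sequences are from RefSeq. Genes that no probe set measures alone, and withheld items, were left out.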

Additional observations from a re-analysis of the deposited data

How the results depend on the processing

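The count of 1 gene called lower, Otx2, became 2 for unscaled deposited values and 2 for the replicate block, with Pou3f1 added in both (adjusted p = 0.0188 and 0.0262). It became 0 with no filter, 0 with every probe set tested alone, 0 without the intensity trend and 0 with the methods' t-test after Benjamini-Hochberg adjustment. With no filter 0 of all 18193 genes were called, and with the adjusted t-test 0 of all 12849. With every probe set alone 80 of 27022 probe sets were called lower, and without the trend 159 of 12849 genes. Before adjustment these 4 settings gave 3, 2, 2 and 1 of the 9 genes lower, and the 1 of the last was Sox3 and not Otx2. The unadjusted t-test gave 570 of all 12849 genes lower and 666 higher. No such share was taken for the other settings. The adjusted p of Otx2 was 0.385 with no filter, 0.102 with every probe set alone, 0.0566 without the trend and 0.543 with the methods' t-test, and ran from 0.00137 to 0.543 over its 16 alternatives with an adjusted p, 11 of which called it. With 1 array left out, 0 to 2 genes were called lower and 2 to 6 were over 2-fold lower, the lowest of both without KSP-negative replicate 2, which also ended the call of Otx2. None of the 9 genes was called higher under any alternative run. Among the fits with 1 array left out, the one without KSP-negative replicate 2 also called the fewest of all genes tested. The log2 difference of Six3 ran from -0.27 to 0.10 with 1 array left out. It turned to 0.10 without KSP-positive replicate 2 and to 0.07 without KSP-negative replicate 2. The differences of the dim genes depend on the floor: with no floor they were -3.75 for Sox1, -2.36 for Rax and -1.59 for Pax6, and with the floor at the 40th percentile -1.27 for Zic2 and 0.00 for Rax. The cause of these changes was not tested. Over all genes tested the replicate block called 571 higher and 560 lower, and the values as deposited called 286 higher and 352 lower. The fit as reported called 236 higher and 212 lower. The deviations of replicates 1 of the 2 fractions correlated at 0.166. With 2 arrays a fraction and 4 of the 9 genes near the floor, absence of a change was not shown for any gene.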
